A study of Mus musculus with 8 samples.

Results

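Keratin-associated proteins (KAPs, encoded by the Krtap genes) are small proteins that fill the space between the keratin filaments of the hair shaft. Cross-links join them to the hair keratins through their cysteines, and the mass they form gives the hair cortex and cuticle their stiffness. They fall into 3 classes by their amino acids: high sulfur and ultra-high sulfur KAPs, which are rich in cysteine, and high glycine-tyrosine KAPs. Most of the genes have a single short exon and sit in clusters of near copies, and in a growing follicle they are switched on above the dividing matrix, after the first hair keratins.

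The Krtap genes were taken as every non-control probe whose array name begins with Krtap. This gave 65 probes of 51 genes, out of 34790 gene names on the array. The number after Krtap gives the subfamily. The accessions of 49 members matched RefSeq, and 8 of these have since been renamed. Array Krtap16-9, Krtap16-1, Krtap16-5, Krtap16-4 and Krtap8-2 are now Krtap19-1 to Krtap19-5 in that order, Krtap16-10 is Krtap16-3, Krtap16-7 is Krtap21-1 and Krtap16-8 is Krtap6-5. Array names are used here, and a gene's class was taken from its current number. Under this reading 18 genes were high sulfur, 16 ultra-high sulfur, 13 high glycine-tyrosine and 4 (Krtap28 and Krtap31) had no class. The amino acid content itself was not analysed here, so a class rests on the number alone.

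The samples came from the back skin of female C57BL/6 mice whose hair had been brought into step by an earlier waxing. They were a shaved control labelled 10 weeks old, and skin taken after the resting hairs were plucked with wax. The plucked samples date from 12 h, 1 d, 2 d and 4 d (all labelled 10 weeks old), from 6 d and 10 d (11 weeks), and from 50 d (17 weeks). The treatment protocol in the labels gives a younger age for the mice. Each group is 1 array of 1 sample, so no difference carries a test, the spread between mice is unknown, and time and mouse cannot be told apart. Whether a sample pooled mice is not given in the sources used here.

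By its labels the RNA is from adipose cells, while the design text of the series speaks of fat and dermis around the follicles. All 10 adipocyte markers examined were detected on all 8 arrays, and so were all 10 keratinocyte markers and 11 of 15 hair keratins or more. Between 78.4% and 85.1% of all genes were detected on an array, so these counts alone do not show which cells the samples held. In bulk RNA, fewer cells of a type and less RNA per cell cannot be told apart. On each array 72.9% to 81.2% of the spots exceeded background clearly and none was saturated. For probes printed 10 times the SD between spots had a median of 0.056 to 0.092 (log2), depending on the array, and 1 dimmer probe of array Krtap16-8, the only Krtap probe printed so often, had an SD of 0.025 to 0.46, with 0.46 at 4 d, where it was not detected. The levels below come from Krtap probes with 1 spot per array. The scanner's own error for the Krtap probes had a median of 0.144 to 0.154. The scanner headers mark the 10 d array alone for a spike-in slope beyond the accepted range.

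A level below is the log2 processed signal of a gene's brightest probe minus the 75th percentile of its array. Levels compare 1 gene between arrays and not 1 gene with another. A gene is detected where at least 1 of its probes was flagged well above background, and it is called higher or lower where it was detected on the brighter of both arrays and differed by at least 2-fold. Where the dimmer array gave no detection, the fold is a lower bound and is written as at least so many fold.

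Many Krtap genes were moderately higher than in shaved skin at 12 h, at 2 d and again at 4 d, with few of them higher at 1 d between. Nearly all were far higher on the 6 d and 10 d arrays. At 12 h, 27 of 48 tested Krtap genes were higher than in the shaved control, against 3.9% of all genes, and their median difference was 1.35 on the log2 scale. By 1 d only 3 of 44 were higher (2.67% of all genes), with a median of 0.11. The 2 d array had 32 of 48 higher (2.56% of all genes), with a median of 2.16, and the 4 d array 24 of 47 (5.89% of all genes), with a median of 1.05. The late elevation took in 45 of 51 genes on the 6 d array (4.24% of all genes), where the median reached 5.71. It held 48 of 51 on the 10 d array (3.76% of all genes), with a median of 5.40. On the 50 d array 11 of 45 were higher (2.72% of all genes), with a median of 0.40. With genes that were not detected in the control set at their lower bound, the 6 d and 10 d medians were 5.63 and 5.19. The median of all genes tested stayed between -0.13 and 0.02 in these comparisons. Only Krtap31-2 was called lower than the control, on the 4 d and 50 d arrays. In time order from 12 h, 3.36%, 3.22%, 3.57%, 6.62%, 2.12%, 2.29% and 4.41% of all genes were called lower. Normexp background correction, which compresses low signals, brought the 12 h and 4 d medians to 0.57 and 0.60 and the 50 d count to 4, without turning a direction.

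**Figure D1:**
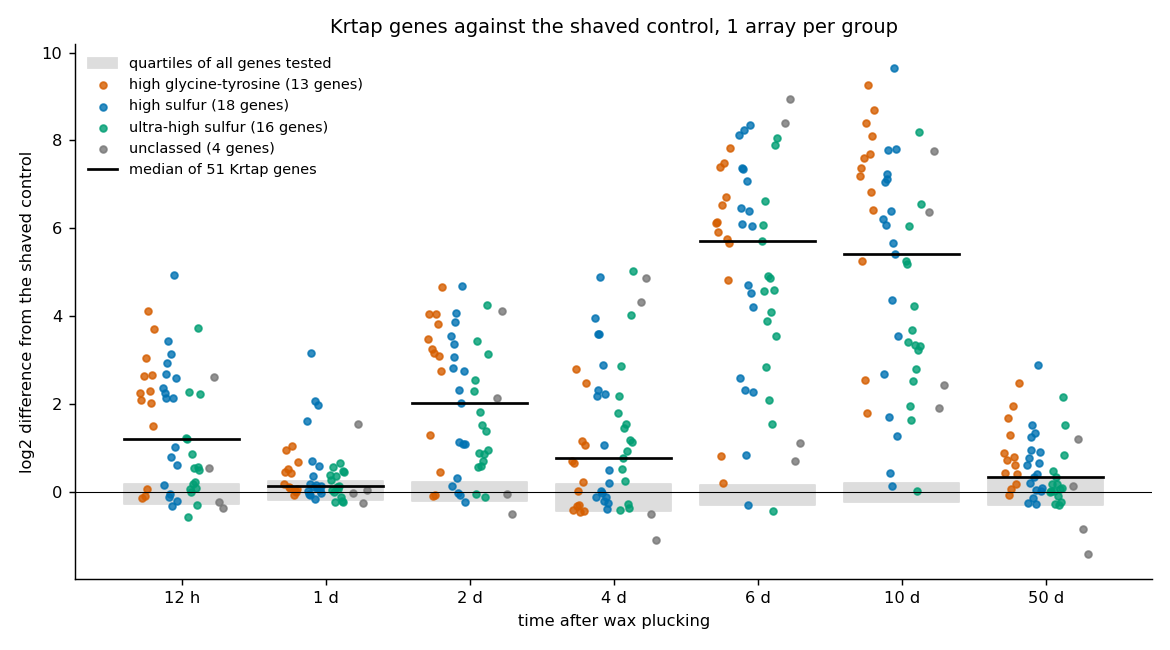
Log2 difference of each Krtap gene from the shaved control (vertical axis) at each time after plucking (horizontal axis), 1 array per group. Points are genes coloured by class, black bars the median of the 51 genes, and grey boxes the quartiles of all genes tested. The medians lie near 0 at 1 d and 50 d and above 5 at 6 d and 10 d.

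Comparing each array with the one before it avoids the shared control. From 12 h to 1 d, 22 of 49 Krtap genes were lower (2.67% of all genes) and only Krtap7-1 was higher (1.55%). From 1 d to 2 d, 28 of 48 were higher (1.04% of all genes) and none was lower (1.29%). From 2 d to 4 d, 12 of 49 were lower (3.92% of all genes) and 2, Krtap17-1 and Krtap28-10, were higher (4.82%). From 4 d to 6 d, 47 of 51 were higher (5.18% of all genes) and none lower (2.61%), with a median of 3.78. From 6 d to 10 d the family split, with 13 of 51 higher (2.52% of all genes) and 9 lower (4.09%). From 10 d to 50 d, 48 of 51 were lower (6.48% of all genes) and none higher (6.09%), with a median of -5.07.

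Detection alone separated the subfamilies little, because most members already gave signal in shaved skin, as did most genes on the array. The shaved control had 41 of 51 Krtap genes detected (80.4%, the same as the 80.4% of all genes). The plucked arrays had 48, 43, 48, 47, 51, 51 and 45 in time order. Of all genes, these arrays had 84.3%, 80.5%, 81.2%, 81.9%, 85.1%, 79.5% and 78.4% detected. Of the 10 genes not detected in the control, 7 were first detected at 12 h: Krtap1-3, Krtap2-4, Krtap3-3, Krtap14, Krtap16-5, Krtap16-9 and Krtap28-13. Krtap7-1 followed at 1 d, Krtap28-10 at 4 d and Krtap4-6 at 6 d. Stricter detection moved the number first seen at 12 h to 17 and looser detection to 4, so first detection here depends on where the background is set.

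Onset, the earliest array from which a gene stayed at least 2-fold above the control up to 10 d, spread the family out more. It fell at 12 h for Krtap3-2, Krtap11-1 and Krtap28-13 and at 2 d for 19 genes. The 12 h onset of Krtap11-1 and Krtap28-13 rests on their brighter probe, since at 1 d it was 2.06 and 1.53 above the control (log2) while their other probe was at -0.11 and -0.19, where that of Krtap28-13 was not detected. Krtap9-5 and Krtap28-10 followed at 4 d, another 21 genes at 6 d, and Krtap8-2, Krtap16-4 and Krtap31-1 at 10 d. Krtap5-5, Krtap10-10 and Krtap13 had none. Onset was not counted over all genes on the array. By current subfamily, Krtap2, 3, 8, 11, 12, 17, 20, 21 and 22 had their onset by 2 d in all members, while no member of Krtap6, 7, 10, 14, 15, 16, 19, 24, 26 or 31 did. Krtap1, 4, 5, 9, 13 and 28 were mixed. Krtap12, 20 and 21, each a single gene here, passed narrowly, with 4 d differences of 1.06, 1.05 and 1.15 (log2). The other Krtap20-2 probes differed from the control by 0.95, 0.55 and -0.65 at 4 d (the last not detected), short of 2-fold higher. With onset set at 4-fold, 11 genes in place of 19 had it at 2 d.

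High sulfur KAPs include the Krtap1, Krtap2 and Krtap3 genes on chromosome 11, whose products lie in the hair cortex. Starting with the shaved control and then in time order from 12 h to 50 d, Krtap3-2 had levels of -4.70, -1.78, -1.55, -0.84, -1.11, 2.65, 2.42 and -3.45. It was among the few members still high at 1 d, 8.85-fold over the control, and at 6 d it was 163-fold over it. Its neighbour Krtap3-1 ran at -3.15, -0.47, -3.24, 0.21, 0.43, 4.22, 4.09 and -2.19, with no elevation at 1 d and 165-fold over the control at 6 d. Krtap3-3, not detected in the control, was at least 10.6-fold higher at 12 h and at least 298-fold higher at 6 d. These 3 genes were highest at 6 d, but 10 d lay within 0.45 of it for each.

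Krtap11-1, a high sulfur gene at 1 end of the chromosome 16 cluster, had levels of -2.08, 1.04, -0.02, 0.24, 0.80, 4.99, 4.32 and -0.75 in the same order. It was 134-fold higher at 6 d than in the control. Its probes, which disagreed at 1 d, put the 6 d difference at 7.07 and 7.25. Krtap12-1, a subfamily found in the cuticle of human hair, stayed between -4.26 and -2.97 up to 4 d and then gave 0.61 at 6 d and 0.27 at 10 d. Krtap24-1 and Krtap26-1, at the other end of the chromosome 16 cluster, were 4.82-fold and 18.5-fold higher than the control at 6 d, and both were under 2.2-fold at every earlier time.

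Ultra-high sulfur KAPs comprise Krtap4, Krtap9 and Krtap17 on chromosome 11 and Krtap5 on chromosome 7. Krtap17-1 was higher on each array from 2 d to 6 d than on the one before it, with levels of -4.02, -1.80, -3.57, -0.88, 1.00, 4.04, 2.54 and -2.51. At 4 d it was 32.6-fold over the control and 3.71-fold over 2 d, and at 6 d it was 267-fold over the control. At 10 d it was 2.83-fold lower than at 6 d. Krtap9-3 had levels of -4.44, -0.72, -4.67 (not detected), -0.19, -0.42, 3.47, 3.75 and -2.29, so its 12 h, 2 d and 4 d arrays stood together above the control and 1 d did not.

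All 7 Krtap4 genes were highest at 6 d. Krtap4-7, one of those higher at 12 h, had levels of -3.56, -1.29, -3.01, -0.12, -0.71, 3.07, 2.49 and -3.09. Krtap4-9 had a level of -0.35 at 10 d, against 1.89 at 6 d, and Krtap4-6 was detected at 6 d and 10 d alone. Between 10 d and 6 d, 5 of the 16 ultra-high sulfur genes were lower (Krtap4-6, Krtap4-9, Krtap4-16, Krtap9-1 and Krtap17-1) and 1 was higher (Krtap5-4), with a median of -0.69. Of all genes, 4.09% were lower and 2.52% higher at this step.

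**Figure D2:**
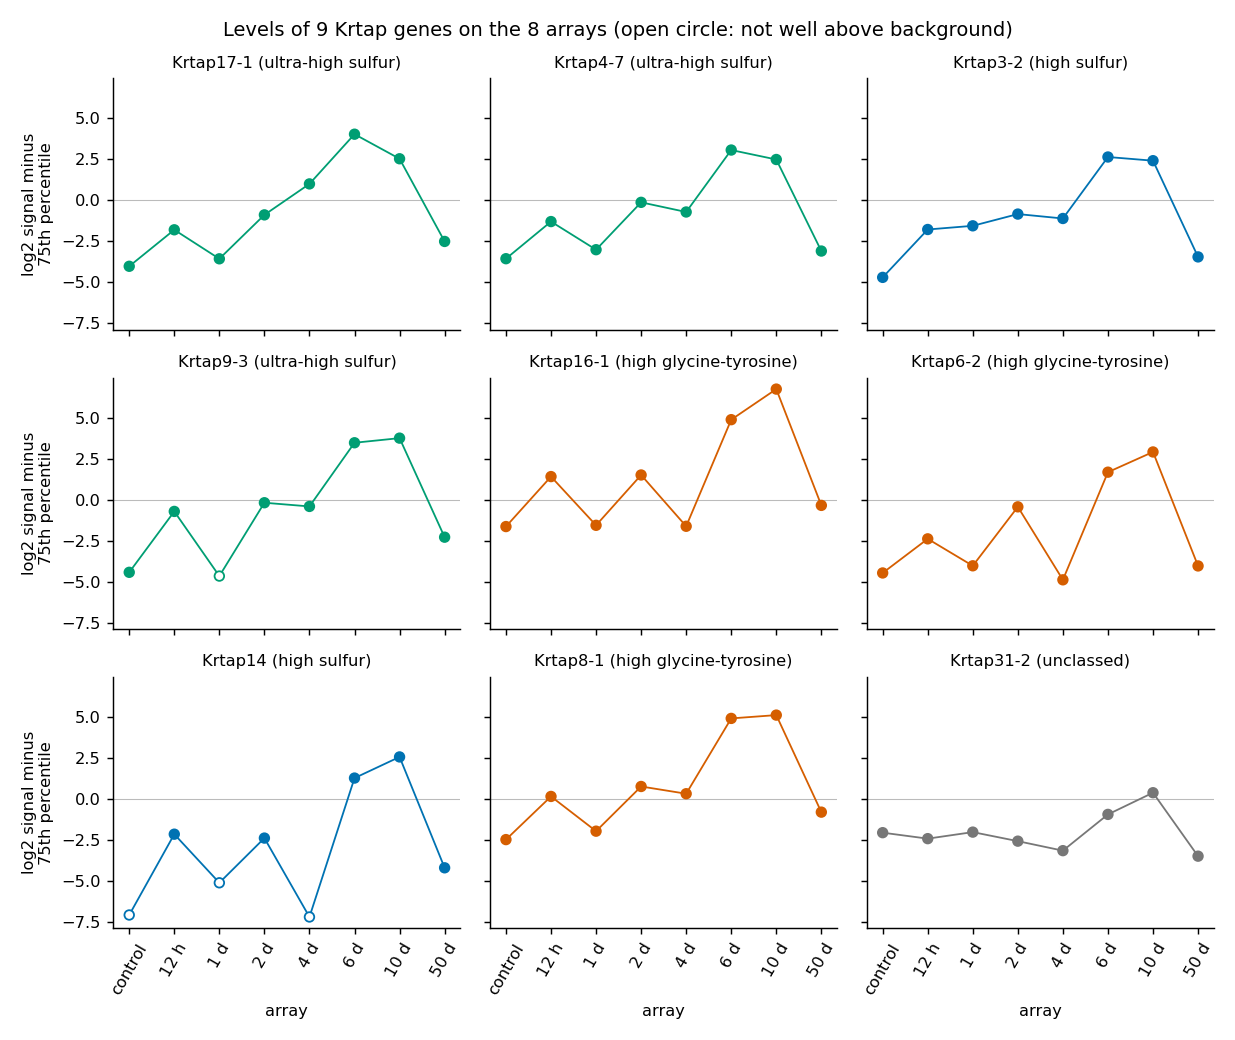
Levels of 9 Krtap genes (log2 signal minus the 75th percentile, vertical axis) on the 8 arrays (horizontal axis), 1 point per array and open circles where the gene was not well above background. The genes of the upper row and Krtap9-3 keep most of their 2 d signal at 4 d, while Krtap16-1, Krtap6-2 and Krtap14 return to their control level there and are highest at 10 d.

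High glycine-tyrosine KAPs, which in sheep and human hair are cortex proteins, all lie on chromosome 16 in this set. Many of them were high at 12 h and 2 d and low at 1 d and 4 d, and all but Krtap7-1 were highest at 10 d. Array Krtap16-1 (now Krtap19-2) had levels of -1.65, 1.40, -1.57, 1.5, -1.63, 4.88, 6.74 and -0.35. It was therefore 8.28-fold over the control at 12 h and 8.86-fold at 2 d, but within 1.01-fold of it at 4 d. The excess then came to 91.9-fold at 6 d and 335-fold at 10 d. Krtap22-2 kept part of its 2 d signal at 4 d, with -3.46, 0.23, -2.79, 1.2, -0.99, 4.36, 5.22 and -1.0, and its 412-fold excess over the control at 10 d was the largest fold measured on both arrays at that time.

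Krtap6-2 had levels of -4.48, -2.40, -4.04, -0.44, -4.89, 1.67, 2.91 and -4.05. Its 4 d level was below that of the control, and its 6 d level was 94.9-fold above 4 d. Array Krtap16-9 (now Krtap19-1) was detected only at 12 h, 6 d and 10 d, at -4.52, -2.36 and 0.92, and its 9.78-fold step from 6 d to 10 d was the largest of any member. Krtap7-1 and Krtap8-1, next to Krtap11-1 in the cluster, behaved otherwise. Krtap8-1 had 0.75 at 2 d and 0.31 at 4 d, then 4.91 at 6 d and 5.11 at 10 d. Krtap7-1 was the 1 gene of the class that was highest at 6 d.

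Of the 13 high glycine-tyrosine genes, 12 were highest at 10 d, against 12 of 18 high sulfur and 12 of 16 ultra-high sulfur genes that were highest at 6 d. The array of the highest level was not counted over all genes. High glycine-tyrosine genes had a 10 d minus 6 d median of 1.08, with 8 higher (2.52% of all genes) and none lower (4.09%). High sulfur genes had a median of -0.28, with 2 higher, Krtap14 and array Krtap16-10, and 2 lower. When classes were set by the old array numbers instead, these medians became 0.86 and 0.04, so the sign of the high sulfur value hangs on the renaming. The normexp correction and the scaling alternatives moved none of the class medians by more than the 0.18 spread between probes of a gene.

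Of the 21 members on chromosome 16, a run of 14 neighbours, with Krtap14 and Krtap6-2 at its ends, shared 1 pattern: each was lower at 4 d than at 2 d and higher at 10 d than at 6 d. Of the other 37 members 10 had both signs. Both differences reached 2-fold in 7 genes of the run and in 1 other gene, Krtap5-4. How many of all genes on the array had both was not counted. The run was picked out after its values had been seen, so its counts are a description. By number alone it holds 11 high glycine-tyrosine genes and 3 high sulfur genes, Krtap14, Krtap15 and array Krtap16-10. At 4 d all 14 were below their 2 d level, by 0.24 to 4.81 on the log2 scale, with a median of -2.73. Of 13 tested, 11 were called lower (3.92% of all genes). The 37 other genes had a median of -0.23 and 1 lower call, Krtap5-4. All 14 were higher at 10 d than at 6 d, by 0.77 to 3.29, and 10 were called (2.52% of all genes), while 27 of the other 37 were highest at 6 d.

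Relative to the control, the medians over the 14 genes of the run were 2.27, 0.14, 3.11, -0.19, 6.09 and 7.54 in time order from 12 h to 10 d. The 37 others had 0.56, 0.12, 1.39, 1.17, 4.86 and 4.23 at the same times. The members of the run that are high sulfur by number had courses like those of their neighbours. Krtap14 was at least 6.77-fold over the control at 12 h, was not detected at 1 d and 4 d, and was at least 178-fold over it at 10 d. Array Krtap16-10 had levels of -1.44, 1.15, -1.41, 1.31, -1.70, 4.61, 6.36 and -0.54, nearly the course of Krtap16-1. Its probe shares the stretch ggaggctttggatatggctctggct with that of Krtap16-1, which is high glycine-tyrosine by number. Whether each probe also binds the other gene's RNA was not tested, nor was the class of Krtap16-10. Krtap15 was lower at 4 d than at 2 d, by 2.76-fold. On the normexp scale the 4 d minus 2 d median of the run was -1.82 and 10 genes were still called lower.

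**Figure D3:**
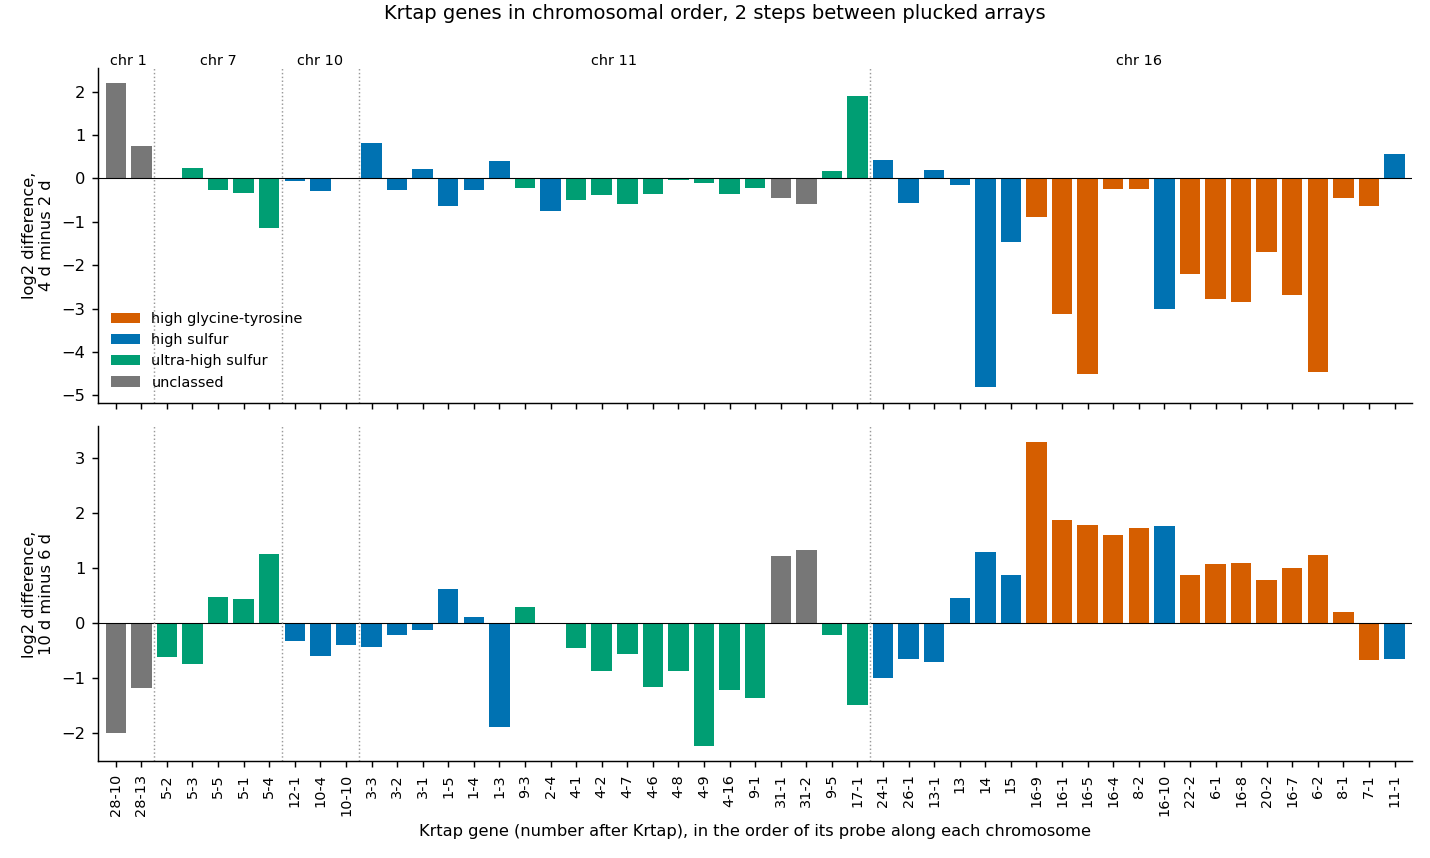
Log2 difference of each Krtap gene between 4 d and 2 d (upper panel) and between 10 d and 6 d (lower panel), with genes in the order of their probes along chromosomes 1, 7, 10, 11 and 16 and bars coloured by class. The 14 genes of the chromosome 16 run, with 14 and 6-2 at its ends, are all negative in the upper panel and all positive in the lower one.

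The region before the start of each gene was examined because the members moved together. RefSeq promoters (GRCm38.p6) were matched for 45 members. The letters TATAAA on the gene's own strand, the core of the TATA box that positions the transcription machinery, stood within 60 bases before the start in 32 of 45 Krtap promoters (71.1%), against 2.87% of 32851 promoters. The median position was 31 bases before the start. In the chromosome 16 run 5 of 14 promoters held it there, against 27 of 31 other Krtap promoters. This split depends on the window: anywhere in the 300-base promoter and on either strand, TATAAA was in 8 of 14 and 29 of 31. In array Krtap16-7, Krtap8-2 and Krtap6-1 of the run, TATAAA stood at -61, -63 and -69, just outside the 60 bases. TATATAAG, searched on the gene's own strand of the 60 bases after the sequences were seen, was in 4 of 14 and 1 of 31, and in 0.408% of all promoters. This count depends on the window too, since array Krtap16-9 and Krtap16-1 hold TATATAAG just before the 60 bases. Every promoter of the run held TATAAA or TATATAAG either within the 60 bases or just before them. The 60 bases before the start are shown, 5′ to 3′ on the gene's strand with TATAAA in capitals, first for 3 genes outside the run, then for 2 genes of the run with the motif and 3 without it.
Krtap17-1, chr11:99993995-99994054, minus strand: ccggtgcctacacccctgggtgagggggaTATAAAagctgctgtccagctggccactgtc
Krtap4-7, chr11:99644090-99644149, minus strand: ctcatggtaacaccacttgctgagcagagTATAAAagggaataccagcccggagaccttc
Krtap3-2, chr11:99556854-99556913, minus strand: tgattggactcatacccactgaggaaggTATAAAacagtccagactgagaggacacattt
Krtap20-2, chr16:89205801-89205860, plus strand: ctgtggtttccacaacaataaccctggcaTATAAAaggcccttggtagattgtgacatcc
Krtap6-2, chr16:89420112-89420171, minus strand: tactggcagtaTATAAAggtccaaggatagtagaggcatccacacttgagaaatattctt
Krtap14, chr16:88826146-88826205, minus strand: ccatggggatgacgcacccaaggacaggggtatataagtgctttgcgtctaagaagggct
Krtap16-1, chr16:88874270-88874329, minus strand: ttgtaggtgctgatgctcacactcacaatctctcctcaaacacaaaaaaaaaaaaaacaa
Krtap16-5, chr16:88878039-88878098, minus strand: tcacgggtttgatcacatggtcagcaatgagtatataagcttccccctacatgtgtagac

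Other motifs were counted on both strands of the 300-base promoters. TATAAA itself was in 37 of 45 Krtap promoters, against 13.6% of all. CTTTGAA, a core of the LEF/TCF site, was in 9 (20%, against 5.14% of all) and CTTTGAT in 3 (6.67%, against 3.73%). TTTATG, a HOX13 core, was in 12 (26.7%, against 11.9%), and TTTATT in 10 (22.2%, against 19.6%). GACGC, a FOXN1 core, was in 3 (6.67%, against 27.2%), and CCAAT in 17 (37.8%, against 37.4%). A match is a description of these letters, not a bound site.

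The 4 genes without a class showed opposite courses. Krtap28-13 on chromosome 1 was not detected in the control, was at -2.49, -3.58, -1.0 and -0.25 from 12 h to 4 d, and reached 3.83 at 6 d, at least 429-fold over the control. Krtap28-10 beside it was detected from 4 d to 10 d alone and was at least 70.1-fold over the control at 6 d. Both were lower at 10 d than at 6 d, by 2.28-fold and 4.04-fold. Krtap31-1 and Krtap31-2, on chromosome 11, were the reverse: Krtap31-2 had levels of -2.07, -2.43, -2.03, -2.58, -3.16, -0.95, 0.37 and -3.50. It was below its control at 4 d and 50 d, and both genes were highest at 10 d, at 3.72-fold and 5.42-fold over the control. In these 2 genes 10 d exceeded 6 d by more than 2-fold, as in 10 of the 14 genes of the chromosome 16 run.

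The level of 2 members barely changed. Krtap13 stayed between -3.56 and -3.09 on all 8 arrays and Krtap10-10 between 2.04 and 2.93. Array Krtap16-4 and Krtap8-2, both inside the run, stayed within 2-fold of the control up to 6 d and were higher than it at 10 d, by 3.45-fold and 5.79-fold. Krtap8-2 was already 2.21-fold higher at 6 d than at 4 d. The value of Krtap5-5 rests on its probe. Its brightest probe stayed between 0.66 and 1.13, but its other 3 probes were higher at 6 d than in the control by 3.46 to 6.04 on the log2 scale. Of 4 Krtap20-2 probes, 3 gave the same course and the fourth was detected only at 12 h and 2 d. Over the 10 Krtap genes with several probes, the SD between probes of a gene in its 6 d difference had a median of 0.69 and a maximum of 3.14.

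**Figure D4:**
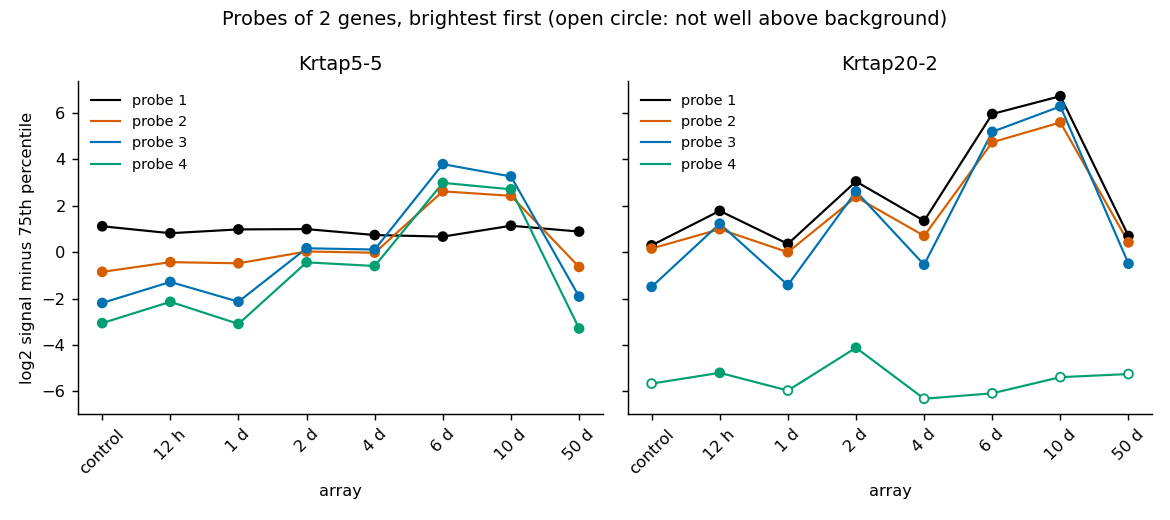
Levels of the 4 probes of Krtap5-5 (left) and Krtap20-2 (right) on the 8 arrays, as log2 signal minus the 75th percentile, with open circles where a probe was not well above background. The brightest Krtap5-5 probe is level while its other 3 rise at 6 d, and 1 Krtap20-2 probe stays below -4 throughout.

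Near copies limit how far single members can be told apart, since a 60-base probe may also bind its neighbour's RNA. Among probes of different members, 3 pairs overlapped by at least 40 bases with 80% identity or more. They are shown with the bases that differ in capitals. Krtap6-1 and array Krtap16-8 differ at 3 of 60 bases.
Krtap6-1, chr16:89032140-89032199 (mm9): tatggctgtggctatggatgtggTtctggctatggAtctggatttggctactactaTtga
Krtap16-8, chr16:89047852-89047911 (mm9): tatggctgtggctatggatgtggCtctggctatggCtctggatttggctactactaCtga
Krtap8-2 and array Krtap16-4 differ at 8 of 60.
Krtap8-2, chr16:88896479-88896538 (mm9): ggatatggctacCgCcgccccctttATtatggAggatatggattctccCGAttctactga
Krtap16-4, chr16:88885057-88885116 (mm9): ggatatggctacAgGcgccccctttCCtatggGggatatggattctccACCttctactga
The third pair, a probe of Krtap5-1 and one of Krtap5-5, matched at 43 of 51 bases. Krtap6-1 and Krtap16-8 had near-identical courses on these probes, at 6.16 and 6.84 on the 10 d array, -0.33 and 0.24 on the 4 d array, 2.46 and 3.09 on the 2 d array and -1.03 and 0.01 in the control, so these probes do not separate the genes. Each gene also has a dimmer probe outside the similar pairs. For Krtap6-1 this gave 3.31 at 10 d, no detection at 4 d, -0.32 at 2 d and -4.81 in the control. For Krtap16-8 it gave 2.96, no detection, -0.39 and -4.25 on the same arrays. Counting 1 gene per such pair moved no median of the family by more than the 0.18 spread between probes of a gene. Array Krtap16-1 and Krtap16-10, whose probes share a shorter stretch, fell below these limits and were not counted as a pair.

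The filaments that KAPs are bound to are made of hair keratins. The 15 genes listed had medians over the control of 1.35, 0.25, 1.55, 2.09, 5.03, 4.60 and 0.80 in time order from 12 h to 50 d. Like the Krtap genes they were low at 1 d, but 7 of 14 tested were higher at 4 d than at 2 d (4.82% of all genes) and none lower (3.92%). Their median at this step was 0.94, against -0.30 for the Krtap genes. Krt33a had levels of -3.55, 0.55, -2.67, 0.47, 1.82, 5.69, 5.20 and -0.58 in array order, so it stood high at 12 h and 2 d but less so at 1 d, and was higher at 4 d than at 2 d. Krt35, an early keratin of the matrix and lower cortex, had 5.99 at 4 d against -0.05 at 2 d.

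The 8 genes of shaft crosslinking and other shaft proteins, among them the transglutaminase gene Tgm3, had medians of 3.80, 5.62 and 4.56 on the 4 d, 6 d and 10 d arrays. Inner root sheath genes, made by the layers that mould the shaft, were further ahead. Of 9 listed genes 8 were on the array, and their medians over the control were 3.10, 0.49, 3.87, 7.71, 7.96, 6.73 and 2.2 in the same order. Hair matrix regulators, 10 genes such as Foxn1 and Hoxc13, which drive hair keratin genes, had medians of 2.32, 1.75 and 0.66 on the 4 d, 6 d and 10 d arrays. Hoxc13 had levels of -2.05, 2.2, 1.97 and 0.02 from 2 d to 10 d. So at 4 d the regulators were at their highest list median, while the Krtap median of 1.05 was under that at 2 d.

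Several other cell types moved with the arrays, and their part in the Krtap values was not tested. All 10 interfollicular keratinocyte markers were detected on every array, with medians over the control of 2.25, 3.41, 2.12, 2.01, 0.87 and -1.35 from 12 h to 10 d. Their median was highest at 1 d, where that of the Krtap genes was lowest. The log2 of their summed signal lay between 3.66 and 8.10 over the 8 arrays. The 10 adipocyte markers had medians of -0.64, -0.71 and -0.66 on the 4 d, 6 d and 10 d arrays, and the log2 of their summed signal lay between 9.31 and 10.32. Melanocyte markers, all 7 detected throughout, had medians of 3.98, 3.94 and 2.19 on these arrays, and the 10 markers of dividing cells had 2.48, 1.37 and -1.0. No marker of these lists sat at 0, though 9 of the 10 dividing-cell markers were detected on each array other than those of 4 d and 6 d, which had all 10. The 6 outer root sheath and bulge genes had medians of 2.47, 1.29 and -0.31 on the 4 d, 6 d and 10 d arrays, the 6 fibroblast genes -0.41, -0.37 and -0.39, and the 4 muscle genes -0.20, -0.28 and -0.18.

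**Figure D5:**
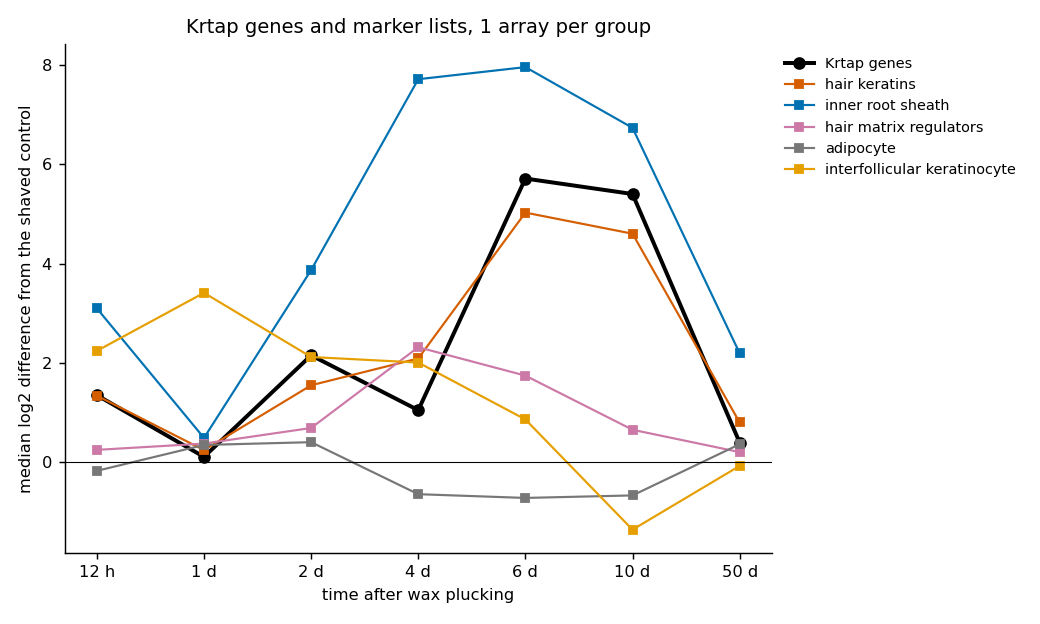
Median log2 difference from the shaved control (vertical axis) of the Krtap genes and of 5 other gene lists at each time after plucking (horizontal axis), 1 array per group. The Krtap and hair keratin lines share a dip at 1 d and a summit at 6 d, whereas the inner root sheath line is already at 7.71 at 4 d.

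At 50 d most of the family was back near the control. The 11 genes still called higher were Krtap3-2, Krtap3-3, Krtap8-1, Krtap9-3, Krtap11-1, Krtap14, Krtap16-1, Krtap16-5, Krtap17-1, Krtap22-2 and Krtap28-13. Krtap22-2 was 5.51-fold and Krtap9-3 4.42-fold over the control, and Krtap14, detected at 50 d and not in the control, was at least 1.63-fold over it. With the 50 d array in place of the control, the medians were 5.15 at 6 d and 5.07 at 10 d, and at 4 d the median was 0.45.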

How the data were processed

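Each sample's total RNA, carrying the dye Cy3, was measured on 1 Agilent array of a single colour. Per the file headers, the deposited values are spot intensity from Agilent Feature Extraction 10.5.1.1 on mm9 probe positions, background-subtracted, and no normalization between arrays is recorded there. All 8 arrays lie on 1 slide. From these, the log2 of the deposited processed signal was taken, control and outlier spots were dropped, spots of a probe were averaged, and each array's 75th percentile was subtracted. This left 55668 probes, 13 having been dropped, and a gene's brightest probe stood for it. The 65 Krtap probes have 74 spots on an array, but each gene's brightest probe has 1, and the number of arrays limits the precision.

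With 1 array per group no test was possible, and differences, counts and medians are descriptions. The dim side of a bound was the lowest detected signal of that array, or the probe's own where this was higher. Calls used the dim probe's own value. Near-identical probes were compared base by base. Promoters and current symbols came from RefSeq (GRCm38.p6), which was not mixed with mm9 positions. Calls were checked on simulated arrays, with changes larger than 2-fold planted in bright single-probe genes. Dim members, bounds and differences near 2-fold were not checked in this way.

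The members and lists were chosen with earlier results of these data known. Genes named were, by rule, the brightest of each subfamily, single-member subfamilies and the largest and smallest differences at each time and step. The chromosome 16 run, the probe examples and the promoters printed were chosen after their values were seen, as were Krtap4-6, Krtap4-16, Krtap5-1 and Krtap9-5, which are named in small counts outside the rule. Python 3.11.15, numpy 2.4.6, pandas 2.3.3, R 4.3.3 and limma 3.58.1 (normexp, offset 50) were used. The planned comparison with protein composition was not run.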

Additional observations from a re-analysis of the deposited data

Results flagged for a closer look

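Probes outside the rule carried the same late signal. The array holds 7 probes whose accession or description points to a keratin-associated protein but whose array name does not begin with Krtap, and 6 of them were at least 2-fold higher at 6 d than in the shaved control also when a dim control was set at its bound. Gm11570, whose accession now carries the symbol Krtap16-1 on chromosome 11 and which differs from the array's own Krtap16-1, was at least 372-fold higher, with a level of 3.62 at 6 d and no detection in the control. The 2 probes of AY026312 (now Krtap19-9b) were 66.6-fold and at least 48.1-fold higher. 1110025L11Rik was 29.1-fold, A030014E15Rik 40.3-fold and TC1723267 19.6-fold higher. The seventh, a transcript on chromosome 11, was detected at 6 d alone. Its difference of 1.97 on the log2 scale would pass the call used for the family, but its bound gives no fold.

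AY026312 and 1110025L11Rik have mm9 positions inside the chromosome 16 run but are not among its 14 genes. The brighter AY026312 probe had levels of -0.99 at 2 d, -5.11 (not detected) at 4 d, 1.88 at 6 d and 3.59 at 10 d. 1110025L11Rik had -0.13, -4.24, 1.24 and 3.35 on the same arrays. Both were thus lower at 4 d than at 2 d and higher at 10 d than at 6 d, as the 14 members were. Gm11570 on chromosome 11 had -1.78, 0.01, 3.62 and 2.05, with neither feature.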

How the results depend on the processing

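No paired analysis was possible because each group holds 1 array, and for the same reason no array could be left out of a group. Of 472 recomputed values for the comparisons, 424 stayed within the spread between probes (0.178 on the log2 scale) or within 1.5 times the count, and none turned a called direction. Of 1496 recomputed single-gene differences 363 moved by more than that spread, 298 of them under normexp, and none that was called changed sign. Only differences already called at 2-fold were recomputed, so a change of sign was unlikely from the outset. Normexp lowered the medians over the control to 0.57 (12 h), then 1.34, 0.60, 4.43 and 3.94 (2 d to 10 d), and set those of the steps at -0.38 (1 d minus 12 h), 1.03 (2 d minus 1 d), 3.35 (6 d minus 4 d) and -3.52 (50 d minus 10 d). Under it 4 genes were higher at 50 d, 0 were lower at 4 d or at 50 d, 0 were higher at 1 d than at 12 h, and 1 was higher at 4 d than at 2 d. It moved the median of all genes by -0.11 at 6 d. Quantile normalization left 0 genes lower at 4 d. The mean over probes gave 1 gene higher at 1 d, 2 lower at 4 d and a 2 d minus 1 d median of 1.74. Looser detection put 4 genes, and stricter detection 17, at 12 h as first detection. Against the 50 d array the medians were 1.08 (12 h), then 1.59, 0.45, 5.15 and 5.07 (2 d to 10 d), with 6 genes lower at 1 d and 5 at 4 d. A 1.5-fold threshold gave 7 genes higher at 1 d, 19 higher and 2 lower at 50 d, 4 higher at 4 d than at 2 d and 18 lower at 10 d than at 6 d. A 4-fold threshold gave 0 lower at 4 d and at 50 d, 3 higher at 50 d, 0 higher and 14 lower at 1 d than at 12 h, 1 higher at 4 d than at 2 d, and 1 higher and 2 lower at 10 d than at 6 d. Without a detection filter 6 genes were higher at 1 d, all members together had a 4 d median of 0.77, and a 4-fold onset left 11 genes at 2 d. The shares of all genes called under these settings were not computed. These counts therefore show only how the Krtap calls moved. The following were chosen after seeing the data: with classes by array number the 10 d minus 6 d medians were 0.86 (high glycine-tyrosine) and 0.037 (high sulfur), and under normexp the chromosome 16 run had a 4 d minus 2 d median of -1.82 while 1 other gene was higher and 0 were lower. The cause of these shifts was not tested. Signal over background limits the dim members, which have only bounds where they were not detected.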
